A study of Schmidtea polychroa with 132 samples.

Results

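The first embryo stage of *Schmidtea polychroa*, a freshwater planarian flatworm, was compared with the 2 stages that follow it. Stage 1 was represented by 6 single-embryo libraries and stages 2 and 3 by 29 and 22, so that 57 of the 132 libraries of the series entered the comparison. All stage 1, stage 2 and stage 3 libraries were kept, however shallow. Every embryo came, per the labels, from capsules laid by 1 laboratory population and held at 20 °C, with collection spread over 15 days of development. Embryos were staged when the capsules were opened, frozen singly, and their polyadenylated RNA was read with CEL-Seq, a barcoded method that counts 3′ ends of transcripts, after addition of synthetic spike-in RNAs. Stages 2 and 3 against stage 1 is a comparison of untreated embryos of 1 species, with no genotype or agent to set the groups apart. The capsule of origin of an embryo is not given in the sources used here, so the p-values measure the spread between these embryos and could not take shared capsules into account.

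Planarian eggs are unusual in that the zygote carries little yolk of its own. Each capsule instead packs the zygotes together with a large mass of maternal yolk cells, among which the blastomeres divide and disperse, and from which the young embryo later feeds by swallowing yolk cells through a transient pharynx. A library from a very young embryo may therefore hold RNA of the embryo and RNA of the yolk around it. In bulk libraries such as these, fewer cells of a type and less RNA per cell cannot be told apart.

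The transcript models carry numbers and no gene names in the files used here, so they are given by their IDs. The yolk libraries of the series (4) and its stage 8 embryos (15) were used to sort them. Of 11070 transcripts tested between those groups, 2206 (19.9%) were higher in yolk and are called yolk-high, and 4694 (42.4%) were higher in stage 8 and are called stage-8-high. These groups share no library with stages 1 to 3.

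Stage 1 was shallow in 3 of its 6 libraries. After the removal of FW_v1_tr_05168, FW_v1_tr_07874 and FW_v1_tr_02571, which had followed the spike-ins in earlier work on these data, stage 1 replicates 1 to 3 held 9338, 12942 and 8530 transcript counts. Stage 1 replicates 4 to 6 held 98916, 171723 and 471103. The first 3 of these libraries carry sample numbers within 1 to 30, the other 3 within 33, 34 and 108 to 132, and the same division runs through stage 2 (17 and 12 libraries) and stage 3 (10 and 12). The labels do not say what the sample numbers stand for beyond the embryos' own numbering. They are called early-numbered and late-numbered here, and the tests of stages 2 and 3 against stage 1 below hold this division as a term or stratum unless they are run within 1 division.

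The early-numbered stage 1 libraries were the shallowest of all 57. Among early-numbered stage 2 and 3 libraries the transcript total ran from 14491 to 359081 counts with a median of 41058, and 0 of 27 fell under the highest early-numbered stage 1 total. Late-numbered stage 2 and 3 libraries ran from 39946 to 1031677 with a median of 254178.5, which encloses the 3 late-numbered stage 1 values. Averaged over both divisions, log2 transcript totals of stages 2 and 3 exceeded those of stage 1 by 1.43 (exact permutation test within divisions, two-sided, adjusted p = 0.0367 over 8 measures). The difference was 2.50 among early-numbered libraries (exact p = 0.0113) and 0.36 among late-numbered ones (exact p = 0.633). The difference between the divisions themselves did not pass (exact permutation test, adjusted p = 0.256). Leaving out any one of stage 1 replicates 1 to 5 ended the call, with averages between 1.17 and 1.52, and leaving out replicate 6 gave 1.74.

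**Figure D1:**
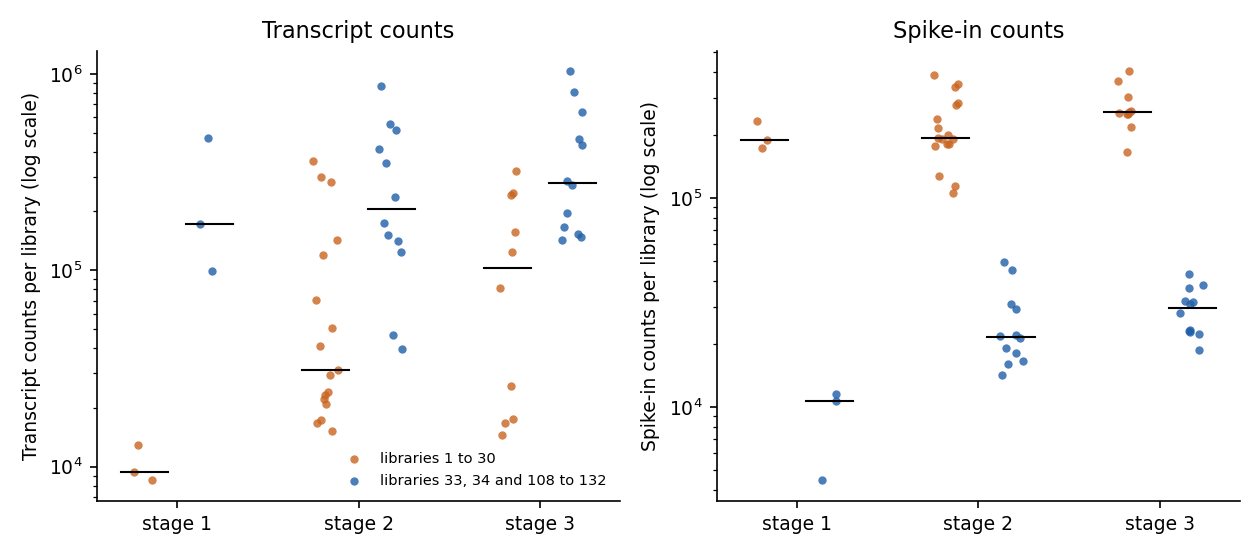
Transcript counts (left) and spike-in counts (right) per library on log axes, by stage and by sample number; each point is a library and each bar a median. The early-numbered stage 1 libraries hold 8530 to 12942 transcript counts, under all early-numbered libraries of stages 2 and 3, while the late-numbered stage 1 libraries hold the lowest spike-in counts.

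Spike-ins took far more counts than transcripts in the shallow libraries. Stage 1 replicates 1 to 3 held 173367, 189059 and 234555 spike-in counts, within the range of 105084 to 404424 in early-numbered libraries of stages 2 and 3. Replicates 4 to 6 held 4450, 10630 and 11501, all under the lowest late-numbered value of stages 2 and 3, which was 14190. The log2 spike-in total was higher in stages 2 and 3 by 0.93 on average (adjusted p = 0.00287, exact permutation test), by 0.20 in early-numbered libraries (exact p = 0.507) and by 1.66 in late-numbered ones (exact p = 0.000342). The log2 ratio of transcript to spike-in counts averaged 0.49 higher in stages 2 and 3 (adjusted p = 0.480, exact permutation test), and it pointed in opposite directions in the 2 divisions. It was higher in stages 2 and 3 by 2.29 among early-numbered libraries (exact p = 0.0264) and lower by 1.30 among late-numbered ones (log2 difference -1.30, exact p = 0.103), and the gap between these was past the threshold (adjusted p = 0.0329, exact permutation test). Without a known spike-in amount per embryo in the sources used here, the ratio is given as a count ratio and not as RNA per embryo. Reads aligned at a share of 40.7% ± 19.3 in stage 1 (SD, n = 6), and stages 2 and 3 had 30.1% ± 13.8 (SD, n = 51), a difference of -11.2 points (adjusted p = 0.00771, exact permutation test) that was -7.96 without stage 1 replicate 6 (adjusted p = 0.0879). Spike-in reads count as aligned in this share, so it is no measure of embryo RNA alone. Early-numbered libraries had 57.0% in stage 1 against 40.0% (exact permutation p = 0.00887). Late-numbered ones had 24.3% against 19.0% (exact permutation p = 0.212).

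Depth set what could be seen in stage 1. A single count stood for 107, 77.3 and 117 CPM (counts scaled to a transcript total of 1000000) in stage 1 replicates 1 to 3, and for 10.1, 5.82 and 2.12 CPM in replicates 4 to 6. Of 772552 stage 1 transcript counts in all, the 3 early-numbered libraries gave 30810, or 3.99%. Only 400 of 15121 transcripts had a count in all 6 stage 1 libraries, against 3074 with a count in all 3 late-numbered ones.

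Stage 1 RNA was concentrated in fewer transcripts than that of stages 2 and 3. The 10 most abundant transcripts of each library took 33.0%, 24.7% and 40.0% of transcript counts in stage 1 replicates 1 to 3, and 39.9%, 31.3% and 41.0% in replicates 4 to 6. In stages 2 and 3 the lowest share was 7.51%, the median 18.0% and the highest 37.0%. Stage 1 thus averaged 35.0% ± 6.48 (SD, n = 6) and stages 2 and 3 averaged 17.9% ± 6.63 (SD, n = 51), with some overlap at the top. The 4 yolk libraries had 22.5%, 23.2%, 31.4% and 39.4%, which overlaps the stage 1 values. The average within-division difference was -16.9 points (exact permutation test, adjusted p = 1.15e-05). It held in each division, at 32.6% against 15.3% among early-numbered libraries (exact p = 0.000493) and 37.4% against 20.8% among late-numbered ones (exact p = 0.000684).

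The 2 divisions owed their concentration to different transcripts. The 6 lists of 10 held 18 distinct transcripts, 12 from early-numbered and 11 from late-numbered libraries, with 5 in both and 3 in all 6 lists. All 18 were yolk-high, against 39.4% of the 4503 transcripts tested between stage 1 and stages 2 and 3, and they were chosen for their level in stage 1. Yolk-high means higher in yolk than in stage 8, and does not by itself mark yolk as the source.

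FW_v1_tr_05647 led the early-numbered lists. It took 22.7%, 13.3% and 27.0% of transcript counts in stage 1 replicates 1 to 3 (2124, 1722 and 2304 counts), but 0.00202%, 0.00175% and 0.0146% in replicates 4 to 6 (2, 3 and 69 counts). No early-numbered library of stages 2 and 3 passed 13.5%, and their median was 2.44% and lowest value 0.217%. In late-numbered libraries of stages 2 and 3 the median was 0.0476% and the highest value 0.303%. In the 4 yolk libraries it ran from 64.8 to 1198 CPM, so the levels in early-numbered stage 1 libraries were not met in yolk. Its difference between stages did not pass in all libraries (log2 fold change -1.20, edgeR quasi-likelihood test with TMM factors, adjusted p = 0.321), where opposite directions were averaged. It passed in early-numbered libraries alone (log2 fold change -2.62, adjusted p = 0.0406) and in thinned counts (-2.08, adjusted p = 0.0424), while late-numbered libraries alone gave 3.10 (adjusted p = 0.265). The test of the difference between divisions did not pass (interaction log2 5.35, adjusted p = 0.0738). Without libraries under 5% of the series' median total it was 2.70 (adjusted p = 0.338).

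The share of FW_v1_tr_05647 moved with spike-in counts per transcript count. Over the 27 early-numbered libraries of stages 2 and 3, on log2 scales, Pearson's r was 0.935 and Spearman's rho 0.899 (100000 permutations, p = 2e-05 for each, the smallest they can give, adjusted p = 4e-05 over 2 divisions). Over the 24 late-numbered libraries r was 0.788 (permutation p = 4e-05, adjusted p = 4e-05) and rho 0.739 (permutation p = 0.00012, adjusted p = 0.00012). Without the 2 libraries farthest out on the spike-in axis r was 0.965 and 0.705. Both axes have the transcript total in the denominator, which by itself ties them. The 3 removed transcripts took 44.2%, 37.3% and 50.7% of all transcript counts in stage 1 replicates 1 to 3, and 0.0889% to 0.204% in replicates 4 to 6. The part of the spike-in counts in this result was not tested.

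**Figure D2:**
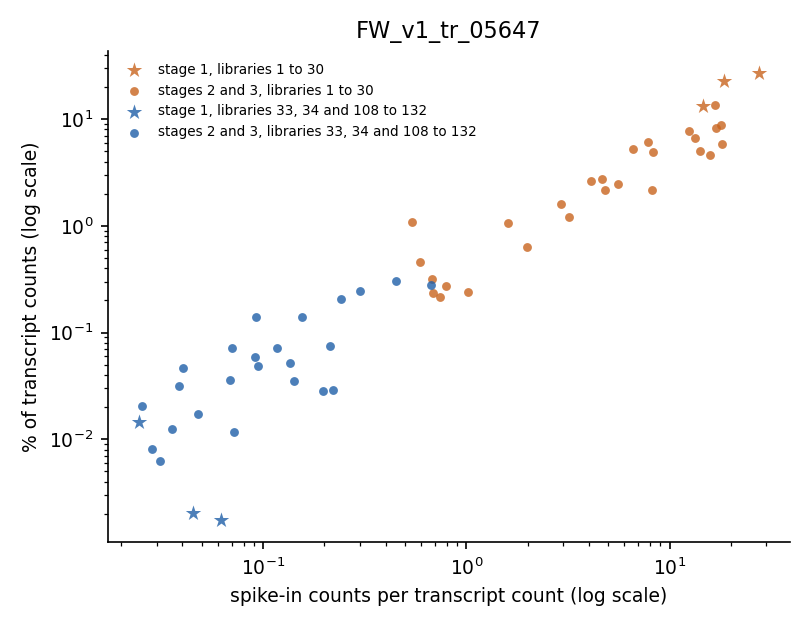
Percent of transcript counts taken by FW_v1_tr_05647 against spike-in counts per transcript count, both on log axes, with 1 point per library of stages 1 to 3. The early-numbered stage 1 libraries lie at the upper right, at 13.3% to 27.0%, and the late-numbered ones at the lower left, at 0.00175% to 0.0146%.

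Without FW_v1_tr_05647 the early-numbered difference in concentration was no longer past the threshold. The 10 most abundant transcripts then took 15.9% ± 3.00 in early-numbered stage 1 libraries (SD, n = 3), whereas those of stages 2 and 3 gave 13.2% ± 4.54 (SD, n = 27) (exact permutation p = 0.356). Among late-numbered libraries the shares stayed at 37.4% and 20.8% (exact permutation p = 0.000684). The average difference was -9.65 points (exact permutation test, adjusted p = 0.00296). Also from the early-numbered lists, FW_v1_tr_15080, FW_v1_tr_00170, FW_v1_tr_12160 and FW_v1_tr_12633 each took 1.07% to 1.43% in stage 1 replicates 1 to 3. For each, 21 to 23 of 27 early-numbered libraries of stages 2 and 3 fell under its lowest value. In edgeR with relative log expression factors these were lower in stages 2 and 3 (adjusted p = 0.0108 to 0.0266). They did not pass with TMM factors in all libraries (adjusted p = 0.151 to 0.205) or in early-numbered libraries alone (adjusted p = 0.364 to 0.445). FW_v1_tr_15080 and FW_v1_tr_00170 had near-equal counts in stage 1, with 2426 each in replicate 6. So had FW_v1_tr_12160 and FW_v1_tr_12633, with 934 and 962 there. Each pair may be models that share reads, which was not tested, so the 4 may not be separate signals. Also on these lists, FW_v1_tr_09357 took 1.34%, 1.01% and 0% in replicates 1 to 3. In edgeR it was lower in stages 2 and 3 with RLE factors (adjusted p = 0.00241). With TMM factors it passed in early-numbered libraries alone (adjusted p = 0.00382) but not in all libraries (adjusted p = 0.0988). FW_v1_tr_05865 passed with neither set of factors (edgeR, adjusted p = 0.334 with TMM and 0.100 with RLE). All were chosen for their level in stage 1.

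In late-numbered stage 1 libraries the leading transcript was FW_v1_tr_02140. It took 6.99%, 5.31% and 6.95% of counts in replicates 4 to 6, above all 24 late-numbered libraries of stages 2 and 3, whose highest value was 5.16% and median 2.28%. Early-numbered stage 1 libraries gave 0.503%, 1.09% and 1.48%, inside the early-numbered range of 0.127% to 3.64% in stages 2 and 3. The yolk libraries held 2.94%, 2.21%, 3.84% and 8.46%, and the stage 4 median was 0.219%. With TMM factors FW_v1_tr_02140 did not pass (log2 fold change -1.02, SE 0.38, adjusted p = 0.170). With the size factors of the relative log expression method (RLE) it was called lower in stages 2 and 3 (log2 fold change -1.35, SE 0.38, adjusted p = 0.0308).

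A trio of transcripts with nearly the same counts stood next to it. FW_v1_tr_01057, FW_v1_tr_12643 and FW_v1_tr_12644 took 5.48%, 5.60% and 5.54% in stage 1 replicate 4, between 2.79% and 2.85% each in replicate 5, and between 4.30% and 4.32% each in replicate 6. No difference between their counts beyond counting noise was detected (chi-square p = 0.290, 0.697 and 0.300 for the 3 pairs), so they may be models that share reads, and their separate values are uncertain. They were the 3 transcripts found in all 6 lists. In early-numbered stage 1 libraries each took between 0.792% and 1.61%.

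FW_v1_tr_14598, FW_v1_tr_01997 and FW_v1_tr_07044 followed the same course. FW_v1_tr_14598 took 3.72%, 4.25% and 2.83% in replicates 4 to 6, and 22 of 24 late-numbered libraries of stages 2 and 3 fell under the lowest of these. For FW_v1_tr_01997 (3.31%, 3.14% and 3.43%) and FW_v1_tr_07044 (1.97%, 2.28% and 1.60%) all 24 did. FW_v1_tr_07605, at 2.13%, 2.80% and 4.27%, was no such case, since a stage 2 library reached 8.06% and only 11 of 24 fell under its lowest value. The other members of the late-numbered lists were set apart less cleanly. Under their lowest late-numbered stage 1 value fell 20 of 24 for FW_v1_tr_14390 and 16 for FW_v1_tr_03132. It was 19 for FW_v1_tr_00070 and for each of the trio. FW_v1_tr_00070 also had 3 late-numbered libraries of stages 2 and 3 above its highest stage 1 value. These names were picked after their values were seen.

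Taken as a set, the 11 transcripts of the late-numbered lists held 41.8%, 32.9% and 42.6% of counts in stage 1 replicates 4 to 6. The late-numbered libraries of stages 2 and 3 had a median of 20.0% (2.77% to 38.5%), the yolk libraries 27.1% (22.3% to 40.3%), stage 4 embryos 1.73% and stage 8 embryos 0.109%. In the 3 early-numbered stage 1 libraries the set held 6.73%, 9.70% and 11.5%, against a median of 11.1% in early-numbered libraries of stages 2 and 3. For these transcripts, chosen in them, 2 of the 3 late-numbered stage 1 libraries lay above the yolk range, and the 3 early-numbered ones lay under it. Of the 11, 4 were called lower in stages 2 and 3 with RLE factors, namely FW_v1_tr_02140, FW_v1_tr_01057, FW_v1_tr_14598 and FW_v1_tr_07044, and 0 with TMM factors. Over all transcripts tested 3.02% were called lower with RLE factors, which is no measure for these 11, since they were chosen for their level in libraries that the test uses.

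Yolk-high transcripts as a whole took 56.8%, 53.6% and 73.3% of counts in stage 1 replicates 1 to 3 and 79.5%, 74.9% and 84.1% in replicates 4 to 6. In stages 2 and 3 the share ran from 21.4% over a median of 65.7% to 82.2%. The group means were 70.4% ± 12.4 (SD, n = 6) and 58.6% ± 17.5 (SD, n = 51), which did not differ past the threshold (difference -11.4 points, exact permutation test, adjusted p = 0.132). The stage-8-high share averaged 11.1% ± 5.89 in stage 1 (SD, n = 6), and the later embryos averaged 14.9% ± 9.05 (SD, n = 51) (difference 3.56 points, exact permutation test, adjusted p = 0.359). FW_v1_tr_05647 is itself yolk-high. Without it the yolk-high share averaged 51.3% in early-numbered stage 1 libraries and 51.0% in early-numbered libraries of stages 2 and 3. The average within-division difference was then -7.12 points (exact permutation test, adjusted p = 0.394). For the stage-8-high share it was 1.89 points (exact permutation test, adjusted p = 0.594). Stage 1 replicate 6 had the highest yolk-high share of all 57 libraries, and replicates 4 to 6 all lay above the late-numbered median of 70.6%.

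**Figure D3:**
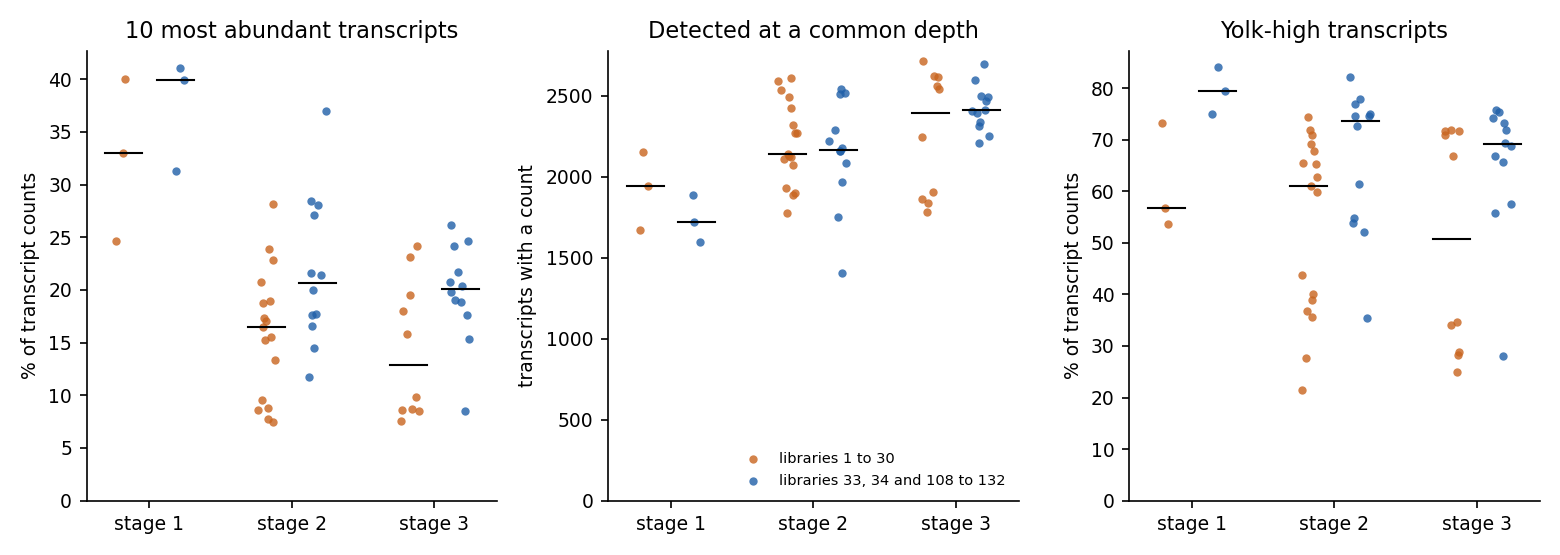
Percent of transcript counts in the 10 most abundant transcripts of each library (left), transcripts with a count after thinning to 8530 counts (middle) and percent of counts in yolk-high transcripts (right), by stage and sample number; points are libraries and bars medians. Stage 1 libraries lie at 24.7% to 41.0% in the left panel against a median of 18.0% in stages 2 and 3.

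Stage 1 also held fewer different transcripts at equal depth. Thinned to 8530 counts, stage 1 replicates 1 to 6 had a count for 1945, 2150, 1671, 1598, 1887 and 1721 transcripts. Libraries of stages 2 and 3 had 1406 to 2712, with a median of 2272, above all stage 1 values. The means were 1829 ± 205 (SD, n = 6) and 2256 ± 293 (SD, n = 51), and the average within-division difference was 429 transcripts (exact permutation test, adjusted p = 0.00287). It was 550 among late-numbered libraries (exact p = 0.00513) and 309 among early-numbered ones (exact p = 0.103). Without FW_v1_tr_05647, at 6226 counts, the late-numbered difference was 429 transcripts (exact permutation p = 0.00547) and the early-numbered one 77.9 (exact permutation p = 0.598).

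What stage 1 lacked outright was limited by its depth. Over the 6 libraries 10647 of 15121 transcripts had at least 1 count and 4474 had none, of which 3744 had a count in stages 2 and 3. A count of 0 over the 772552 pooled counts allows a level of up to 3.88 CPM (3 counts over the group, counting error only). Of 10318 transcripts above that level in pooled stages 2 and 3, 1083 (10.5%) had no count in stage 1. At more than 10 times that level the number was 30 of 3244.

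These 30 transcripts had pooled levels of 42.5 to 155 CPM in stages 2 and 3. None was yolk-high, 19 (63.3%) were stage-8-high and 11 (36.7%) were neither. Among the 3244 transcripts above the same level 42.1% were yolk-high, 27.3% stage-8-high and 30.6% neither. That larger set reaches far higher levels than the 30 do and was not matched to them in level. No yolk library held a count of 14 of the 30, against 50 of the 3244. They were found in a median of 57.8% of stage 2 and 3 libraries, 21 of them in at least 50%, and 2 had over 50% of their counts in 1 library. Counts of 0 in stage 1 rest mostly on its late-numbered libraries, which gave 741742 of its counts.

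The 2 absences named are those with the highest mean CPM over the single libraries of stages 2 and 3, which differs from the pooled level. FW_v1_tr_10219, a stage-8-high transcript, was the broader of them. It had no count in stage 1 or in yolk, a count in 20 of 29 stage 2 and 13 of 22 stage 3 libraries, and a pooled level of 111 CPM, at least 28.7-fold higher than stage 1 allows. Its level at stage 8 was 20.8 ± 17.4 CPM (SD, n = 15). FW_v1_tr_02449 had a count in 14 of 22 stage 3 and 5 of 29 stage 2 libraries, with a highest level of 4762 CPM in 1 stage 3 library. Of its 698 counts in stages 2 and 3, 684 lay in stage 3 libraries, and it had 0 counts at stages 4, 5, 7 and 8. Its pooled level of 62.5 CPM in stages 2 and 3 was at least 16.1-fold higher than stage 1 allows. That bound rests on stage 3. In stage 2 its mean over libraries was 2.36 CPM, under the 3.88 CPM that stage 1 allows. These bounds lean on stage 1 replicate 6, which gave 61.0% of the stage 1 counts. Without it the level allowed is 9.95 CPM, and the bounds are 11.2-fold for FW_v1_tr_10219 and 6.28-fold for FW_v1_tr_02449. Neither passed the edgeR test with TMM factors (adjusted p = 0.140 and 0.249). In the other direction 50 transcripts had counts in stage 1 and none in stages 2 and 3, with at most 17 counts each.

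Transcript by transcript, few differences passed. Of 4503 transcripts tested with edgeR's quasi-likelihood test and TMM factors, 13 (0.289%) passed an adjusted p of 0.05, with 4 (0.0888%) higher and 9 (0.2%) lower in stages 2 and 3, and 790 had an unadjusted p under 0.05. RLE factors gave 148 calls (3.29%), 12 higher (0.266%) and 136 lower (3.02%), the 13 among them. The share of calls that were higher was 30.8% and 8.11%. The median log2 fold change over all transcripts was 0.62 with TMM and 0.18 with RLE. TMM factors of the 3 early-numbered stage 1 libraries were 1.56 to 1.69 and RLE factors 0.519 to 0.727. Levels below are CPM with no such factor.

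FW_v1_tr_11335 rose most among the transcripts that met the conditions for naming. It had 0 counts in stage 1 replicates 1 to 3 and 20.2, 17.5 and 31.8 CPM in replicates 4 to 6 (2, 3 and 15 counts). In stage 2 it ran from 0 over a median of 175 to 902 CPM, and in stage 3 from 103 over 231 to 458 CPM, so that 48 of 51 libraries lay above the highest stage 1 value. The log2 fold change was 3.07 (SE 0.69, adjusted p = 0.0157, TMM) or 2.76 (SE 0.71, adjusted p = 0.0142, RLE). It was present in yolk at 117, 132, 143 and 82.0 CPM and stayed near its stage 2 level afterwards, at 204 ± 120 CPM in 10 stage 4 embryos and 175 ± 53.8 CPM (SD) in 15 of stage 8.

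FW_v1_tr_12600, a yolk-high transcript, rose from a moderate level. Stage 1 replicates 1 to 6 gave 535, 541, 586, 516, 1759 and 1821 CPM, from 5, 7, 5, 51, 302 and 858 counts. Stage 2 ran from 1218 over 4055 to 9912 CPM and stage 3 from 966 over 4355 to 12035 CPM, with 44 of 51 libraries above all of stage 1. All 24 late-numbered libraries of stages 2 and 3 were above all late-numbered stage 1 libraries. The log2 fold change was 2.33 (SE 0.49, adjusted p = 0.00928, TMM) or 1.67 (SE 0.37, adjusted p = 0.00385, RLE). Although yolk-high, it stood lower in yolk (495, 2147, 1971 and 2029 CPM) than in most stage 2 and 3 embryos.

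The other risers, FW_v1_tr_01136 and FW_v1_tr_05515, are named because only 4 transcripts rose. FW_v1_tr_01136 had 321, 232, 117, 1223, 1485 and 2503 CPM in stage 1 and a median of 3125 CPM in stages 2 and 3, and all 24 late-numbered libraries lay above the 3 of stage 1 (log2 fold change 2.02, SE 0.42, adjusted p = 0.00812, TMM). Its stage 4 median was 828 CPM, inside its stage 1 range. The stage 4 medians of FW_v1_tr_05515 (604 CPM) and FW_v1_tr_12600 (2282 CPM) were also under their medians in stages 2 and 3, but above all of stage 1. FW_v1_tr_05515 had 214, 0, 234, 192, 600 and 391 CPM in stage 1 and a median of 1111 CPM later (log2 fold change 2.20, SE 0.53, adjusted p = 0.0335, TMM). All 4 had a higher mean in stages 2 and 3 in both divisions, but none passed edgeR with TMM factors in each division alone. FW_v1_tr_11335 passed in late-numbered libraries only (adjusted p = 0.0387) and FW_v1_tr_01136 in early-numbered ones only (adjusted p = 0.0373). FW_v1_tr_12600 and FW_v1_tr_05515 passed in neither (adjusted p = 0.122 to 0.257). Relative to the median transcript the log2 changes of all 4 were 1.40 to 2.45 with TMM and 1.39 to 2.58 with RLE. Their mean level in yolk lay between that of stage 1 and that of stages 2 and 3 in 4 of 4 cases.

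The rises rested on all 6 stage 1 libraries to different degrees. FW_v1_tr_11335, FW_v1_tr_12600 and FW_v1_tr_01136 stayed called whichever stage 1 library was left out, while FW_v1_tr_05515 lost its call without any one of replicates 1 to 4 (adjusted p = 0.0704 to 0.116, TMM). With the 7 libraries under 5% of the series' median total left out, which removes all 3 early-numbered stage 1 libraries, 0 of the 4 passed, with adjusted p of 0.235 for FW_v1_tr_11335 (log2 fold change 2.35) and 0.266 for FW_v1_tr_12600 (log2 fold change 1.51). That edgeR fit called 0 transcripts higher in stages 2 and 3, with 721 at an unadjusted p under 0.05 in either direction.

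**Figure D4:**
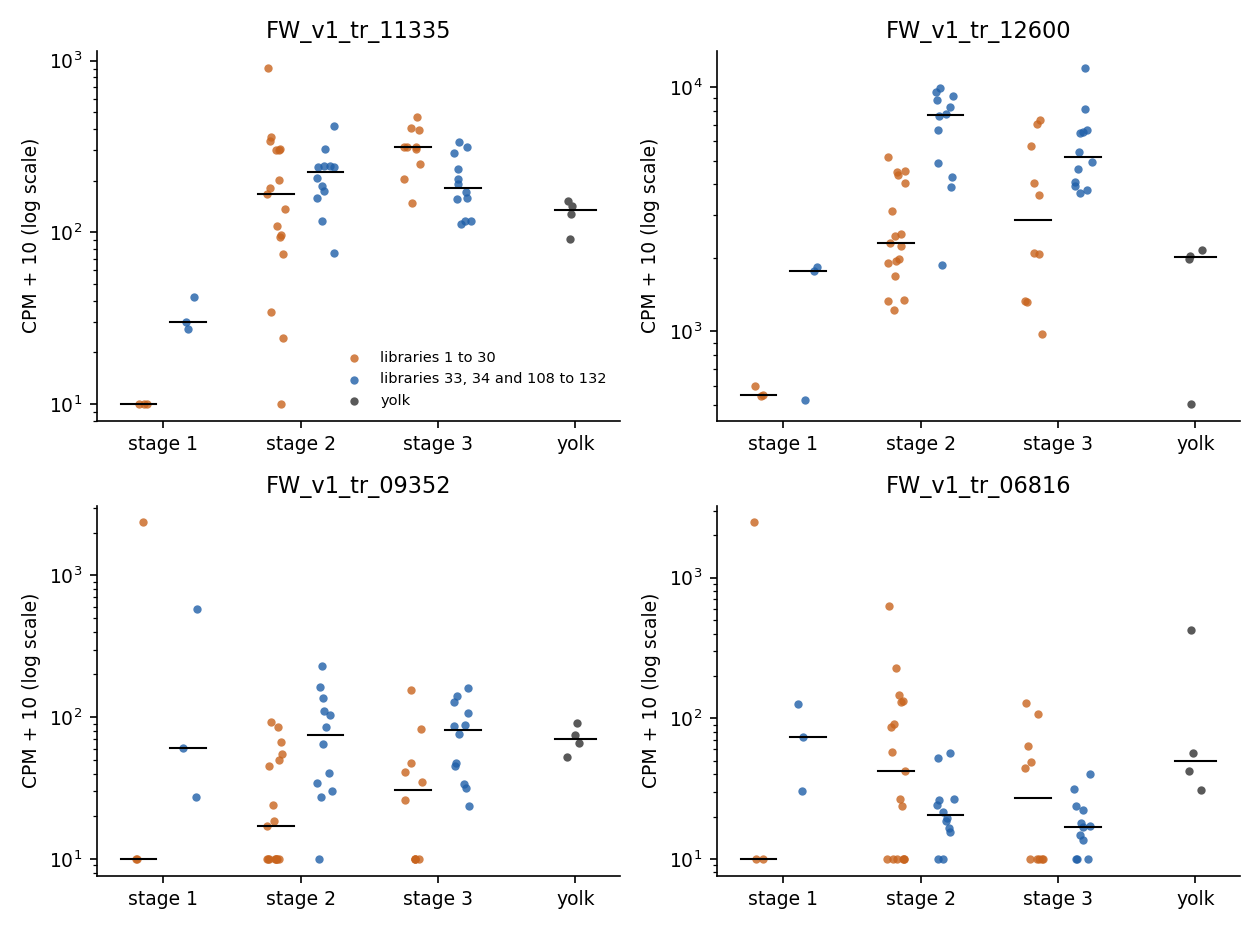
Levels of the 2 named risers (top) and the 2 named fallers (bottom) in each library of stages 1 to 3 and of yolk, as CPM plus 10 on log axes; points are libraries, coloured by sample number, and bars medians. In the lower panels 1 early-numbered stage 1 library stands at 2356 and 2463 CPM while the other early-numbered stage 1 libraries are at 0.

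The 9 transcripts that stage 1 held in excess each lost their call without 1 or another stage 1 library. FW_v1_tr_09352, which is yolk-high, had 2356, 0 and 0 CPM in stage 1 replicates 1 to 3 (22, 0 and 0 counts) and 566, 17.5 and 50.9 CPM in replicates 4 to 6. Stages 2 and 3 ran from 0 over 31.2 to 221 CPM, and yolk from 41.9 to 81.5 CPM. The log2 fold change was -3.11 (SE 0.61, adjusted p = 0.00575, TMM) or -4.41 (SE 0.64, adjusted p = 4.46e-06, RLE). Without stage 1 replicate 1 it was -1.40 (adjusted p = 0.322, TMM), and without replicate 4 the adjusted p was 0.0844.

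FW_v1_tr_06816 gave the same picture. It had 2463, 0 and 0 CPM in replicates 1 to 3 (23, 0 and 0 counts) and 20.2, 116 and 63.7 CPM in replicates 4 to 6, against 0 to 623 CPM with a median of 11.5 in stages 2 and 3. The log2 fold change of -2.86 (SE 0.64, adjusted p = 0.0157, TMM) became -1.78 without replicate 1 (adjusted p = 0.284) and lost its call without replicate 5 (adjusted p = 0.131). In late-numbered libraries alone 20 of 24 from stages 2 and 3 lay under the lowest of the 3 stage 1 values.

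None of the 9 kept its call through all 6 fits that left out a stage 1 library, with TMM factors. The loss of replicate 1 ended 5 calls, of replicate 4 ended 6, of replicate 5 ended 3 and of replicate 2 ended 2, and leaving out replicate 3 or 6 ended 0. Replicate 1 alone carried 22 to 25 counts of FW_v1_tr_09352, FW_v1_tr_06816, FW_v1_tr_10144 and FW_v1_tr_10389, which had 0 to 2 counts in each of replicates 2 and 3. FW_v1_tr_12720 had its 35 early-numbered counts in replicate 2.

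The 2 largest fitted falls turned over without 1 library. FW_v1_tr_02483 had 799 CPM (79 counts) in stage 1 replicate 4 and 0 to 77.3 CPM in the other 5, and its log2 fold change of -3.69 (adjusted p = 0.0157, TMM) became 1.20 without that library (adjusted p = 0.620). FW_v1_tr_01732 had 1904 CPM (327 counts) in replicate 5 and 0 or 1 count in each of the other 5, and its -3.59 (adjusted p = 0.0296, TMM) became 3.80 without it (adjusted p = 0.258). Both are stage-8-high and nearly without counts in yolk, at no more than 7.63 CPM. They did not have the same direction in both divisions, nor did FW_v1_tr_06283.

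FW_v1_tr_06283 differed by sample number. It had 857, 1236 and 586 CPM in stage 1 replicates 1 to 3, under the early-numbered median of 1972 CPM in stages 2 and 3. Replicates 4 to 6 held 3447, 4338 and 354 CPM, above the late-numbered median of 305 CPM. Its log2 fold change was -2.34 in all libraries (SE 0.42, adjusted p = 0.00220, TMM), -3.22 in late-numbered libraries alone (adjusted p = 8.05e-07) and 1.07 in early-numbered ones alone (adjusted p = 0.445). The test of that difference passed (interaction log2 -4.94, adjusted p = 0.00131, edgeR quasi-likelihood test with TMM factors), as it did for 15 of the 4503 transcripts (0.333%). With RLE factors 0 passed it in the same edgeR test, and 383 had an unadjusted p under 0.05.

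All 4 risers had a higher mean in stages 5 and 6 than in stage 1, and 8 of 9 fallers a lower one. At stage 8 all 9 fallers stood lower than in stage 1 and 3 of 4 risers higher. The exception was FW_v1_tr_01136, at a mean of 432 CPM in stage 8 and 980 CPM in stage 1. For FW_v1_tr_05515 the 2 means were close, at 290 CPM in stage 8 and 272 CPM in stage 1. For 7 of 9 fallers the mean of the yolk libraries was above that of stages 2 and 3, and for 9 of 9 it was under that of stage 1. Except for that of yolk against stages 2 and 3, these counts set a group against the stage 1 libraries, so a direction towards stage 1 is partly fixed by the choice of transcripts.

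**Figure D5:**
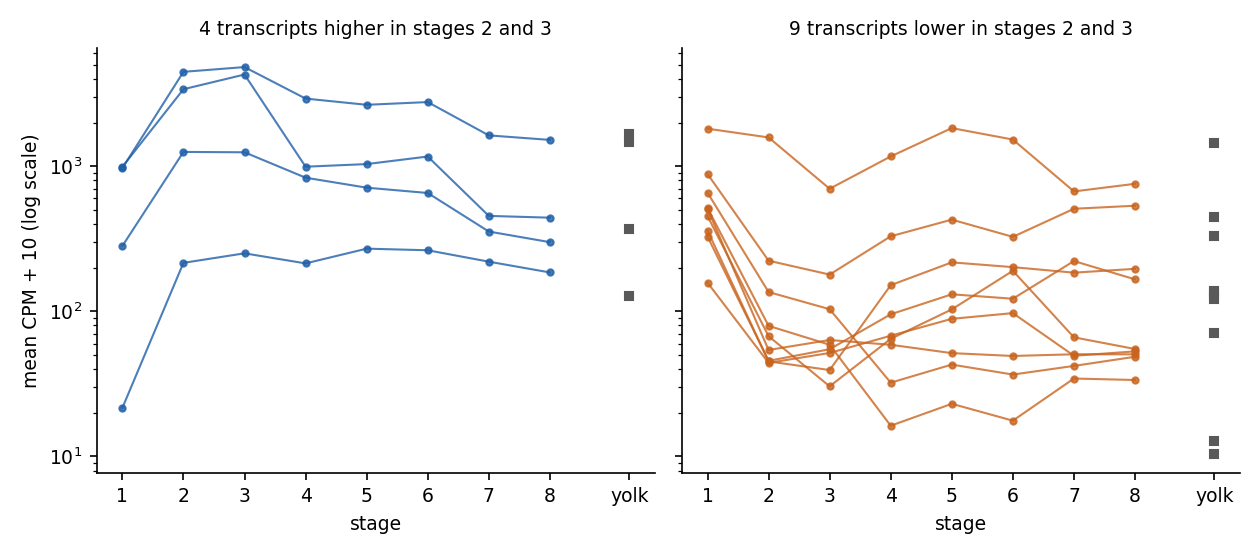
Mean CPM plus 10 by stage on a log axis for the 4 transcripts called higher (left) and the 9 called lower (right) in stages 2 and 3, with yolk means as squares; each line is a transcript. On the left stage 1 is the lowest of stages 1 to 3 for all 4, and on the right the highest of them for all 9.

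The wider set of 136 transcripts called lower with RLE factors had 60 yolk-high (44.1%), 21 stage-8-high (15.4%) and 55 other members (40.4%), against 39.4%, 25.3% and 35.3% of all transcripts tested. In 85 of 136 the mean level had the same direction in both divisions. With RLE factors, the median log2 fold change was 0.05 for yolk-high, 0.31 for stage-8-high and 0.28 for other transcripts. With TMM factors these medians were 0.37, 0.94 and 0.74, all in the same order. Fits that left out a stage 1 library shared fewer of the 148 calls with RLE factors, namely 46 without replicate 1 and 80 without replicate 2, and 115, 108, 102 and 118 without replicates 3 to 6. In number, 49 transcripts were called lower without replicate 1 and 83 without replicate 2. All 12 transcripts called higher with RLE factors had the same direction in both divisions, 4 of them yolk-high and 2 stage-8-high.

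Transcripts that marked the 1 protist library of the series (115, with 97.4% of that library's counts) took 0.589% to 1.68% of counts in early-numbered stage 1 libraries and 0.0566% to 0.105% in late-numbered ones. In stages 2 and 3 they took up to 6.16%, with a median of 0.0618%. None of the 13 transcripts called with TMM factors was among them.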

How the data were processed

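The deposited table lists raw counts, in whole numbers, for 15124 transcript models, 92 synthetic spike-ins and 5 counters of HTSeq. CASAVA 1.8, Bowtie2 2.1.0 and version 0.5.4p3 of HTSeq are the tools named, per the submitters' processing notes. These notes name a Drosophila build, so no coordinates are given. Strand setting and use of molecular identifiers are not given in the sources used here, so counting intervals cover counting error only. Per the labels' protocols, the libraries went through a duplex-specific nuclease step, which reduces abundant sequences and can compress the highest shares.

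Transcript counts without FW_v1_tr_05168, FW_v1_tr_07874 and FW_v1_tr_02571 were fitted with edgeR 4.0.16 in R 4.3.3 (filterByExpr, TMM factors, robust quasi-likelihood test, terms for group and sample number, Benjamini-Hochberg adjustment). SEs are the absolute fold change over the root of F. Results with RLE size factors are printed beside those of TMM. Values per library were compared by an exact permutation test within the 2 sample-number divisions, two-sided, over 11875500 arrangements, with adjustment over 8 measures. CPM scale the kept transcript counts to a total of 1000000. Libraries were thinned to 8530 counts, the smallest total. No 2 stage 1 libraries agreed within sampling noise (15 pairs, chi-square per degree of freedom of at least 8.57).

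Named transcripts were the 2 with the largest rise and the 2 with the largest fall among calls that reached a mean of 10 CPM in the group with more, a count in at least 50% of its libraries and the same direction in both divisions, plus the 2 most abundant in stage 1 and the 2 with the highest mean CPM over libraries of stages 2 and 3 among those with no count in stage 1. Others were named after their values were seen. The groups, lists and tests were chosen with earlier results of these data known, and the removal of FW_v1_tr_05647, the limma-voom (limma 3.58.1) and TMMwsp fits, the combinations with RLE factors and the limits without stage 1 replicate 6 were chosen after seeing the data. DESeq2 1.42.0 served as another count test.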

Additional observations from a re-analysis of the deposited data

Results flagged for a closer look

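Of 23 sets of 6 stage 1 values examined for a library far from the others (the 8 library measures, the 13 called transcripts and the 2 most abundant ones), 6 had one, all among the 9 transcripts called lower in stages 2 and 3. For normally distributed values that were not selected, chance flags about 1 in 20 sets. That is no fair measure here. CPM from so few counts need not be normal, and the 9 transcripts were called for being high in these libraries. The gap of the highest library to the next, as a share of the whole range, was 0.903 for FW_v1_tr_02483 (replicate 4), 0.999 for FW_v1_tr_01732 (replicate 5), 0.76 for FW_v1_tr_09352, 0.953 for FW_v1_tr_06816, 0.96 for FW_v1_tr_10144 and 0.846 for FW_v1_tr_10389 (replicate 1 in these 4), where 0.625 is the critical value for 6 libraries.

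The stage difference in log2 spike-in total was smaller in early-numbered than in late-numbered libraries by 1.46 (early minus late -1.457). The stage difference in the log2 ratio of transcript to spike-in counts was larger in early-numbered libraries by 3.596. Both have an adjusted p of 0.0329 (exact permutation test over 8 measures). In edgeR with TMM factors, 15 of 4503 transcripts (0.333%) had a stage difference that differed between early-numbered and late-numbered libraries (530 at an unadjusted p under 0.05), and 0 had one with RLE factors (383).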

How the results depend on the processing

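No paired analysis was possible because the labels give each embryo its own number and no replicate number shared between groups. The shares of the 10 most abundant, yolk-high and stage-8-high transcripts and the transcripts detected kept direction and side of the threshold under all alternatives run. The ratio to spike-ins, not past it, changed sign (-1.30) without libraries under 5% of the median total. Leaving these out removes all 3 early-numbered stage 1 libraries. For the 8 library measures this setting therefore repeats the late-numbered difference given above and is no separate check. The log2 transcript total lost its call without libraries under 5% (0.36), in stage 2 alone (1.19), with no strata (1.36) and without any of stage 1 replicates 1 to 5, not 6 (1.17 to 1.74 over the 6). So did the aligned share without libraries under 5% (-5.36 points), with no strata (-10.6) and without replicate 6 alone (-12.8 to -7.96 over the 6), and the spike-in total with no strata (1.02). Counts of transcripts moved most. For higher and lower in that order, against 4 and 9 with TMM, DESeq2 called 32 and 161, RLE 12 and 136, a stricter filter 39 and 54, limma-voom 42 and 59, thinned counts 10 and 14, late-numbered libraries alone 1 and 16, libraries over 5% of the median total 0 and 38, libraries over 25% 1 and 32, the 3 transcripts kept 13 and 3, and stage 3 alone 8 and 5. Calls higher alone moved in early-numbered libraries (2), without the sample-number term (1) and in stage 2 alone (8), and calls lower alone without a filter (111), with TMMwsp (15) and without FW_v1_tr_05647 (2). Leaving out single stage 1 libraries gave 3 to 15 higher and 7 to 21 lower. With RLE factors, against 12 and 136, early-numbered libraries gave 0 and 14 (145 at an unadjusted p under 0.05), late-numbered ones 5 and 44, libraries over 5% 0 and 29 (776), stage 2 alone 6 and 73, and 38 were lower in stage 3 alone; single stage 1 libraries left out gave 3 to 17 higher and 49 to 154 lower. On the log2 scale, leaving out single stage 1 libraries gave -4.06 to 1.20 for FW_v1_tr_02483 and -3.96 to 3.80 for FW_v1_tr_01732, and FW_v1_tr_05647 (-1.20) reached -2.62 in early-numbered and 3.10 in late-numbered libraries. FW_v1_tr_06283 turned to 1.07 in early-numbered libraries and 0.076 in limma-voom. Apart from fits with fewer libraries, the cause was not tested. With 3.99% of stage 1 counts in its early-numbered libraries, depth limits what they show of any transcript near 117 CPM or under, where 1 count stands in the shallowest.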
